A study of Rattus norvegicus with 6 samples.

Results

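The translation initiation factors were the 44 genes, of 18166 measured, whose symbol in the platform's annotation begins with Eif and a digit from 1 to 6. They were chosen by name, with the older Argonaute symbols (Eif2c) left out, and the brightest probe set stood for each gene. Each of 6 single-colour Affymetrix arrays held RNA of primary rat hippocampal neurons, dissected from embryos at day 18 and kept in 10 µM 5-fluorodeoxyuridine (FUDR), which blocks DNA synthesis in dividing cells. All cultures received adeno-associated virus at day 4 in vitro, at 1800000 infectious units per ml, and gave RNA at day 14. In 3 of them the virus carried a control short hairpin RNA (shRNA) and in the other 3 an shRNA against Ncoa3, a coactivator of nuclear receptors. Each of 3 experiments gave 1 array of either kind. The sources used here do not give the rat strain, the hairpin sequences or the promoter that drove them. The comparison asks which initiation factor genes differed once Ncoa3 was lowered.

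Initiation is the stage of protein synthesis at which the small ribosomal subunit is brought to an mRNA and finds its start codon. eIF4E binds the cap of the mRNA and, with the scaffold eIF4G and the helicase eIF4A, forms the eIF4F complex, while eIF2 carries the initiator tRNA and eIF3 holds the assembly on the small subunit. The pathway is held back at 2 well-known points, by proteins that bind eIF4E (the 4E-BPs) and by kinases that phosphorylate eIF2, and in neurons both are used to couple protein synthesis to synaptic activity.

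The arrays of the shRNA groups differed as a whole. Array medians of the deposited log2 signal lay between 7.08 and 7.25 with control shRNA and between 6.81 and 6.97 with Ncoa3 shRNA, and the median difference over all genes was -0.25. Between 8680 and 13979 of the 36685 probe sets had equal values on any pair of arrays of one group, against 0 to 2 on pairs that crossed the groups. Processing of the arrays by group cannot be told apart from the shRNA. Changes are therefore given after quantile normalization, which gives all 6 arrays the same distribution and takes away any change common to most genes. Deposited signals are given for the genes described in most detail, and the calls made in them for every gene that passed there. Ncoa3 itself stood at 8.79, 8.88 and 8.37 with control shRNA and 7.43, 7.43 and 7.39 with Ncoa3 shRNA in experiments 1, 2 and 3. The Ncoa3 shRNA values were all below the control values, by -0.97 ± 0.142 after quantile normalization (SE over 3 arrays a group; limma, adjusted p = 0.00747). Without experiment 1 or 2 its adjusted p was 0.134 or 0.123. Neuron markers were bright (10 of 10 above the median gene, list mean 12.16 to 12.31 over the arrays after normalization). Astrocyte markers were also present, with a list mean of 9.81 to 10.28 under control and 9.68 to 10.32 under Ncoa3 shRNA, while 0 of 6 microglial and 0 of 5 dividing-cell markers lay above the median gene. After normalization the list mean of microglial markers was 5.97 to 6.10 under control and 6.20 to 6.43 under Ncoa3 shRNA. Of these 6, 2 rose (Aif1 by 0.43 and Cx3cr1 by 0.99) and 4 did not pass, among them Cd68 at -0.16. For oligodendrocyte lineage markers the list mean was 8.01 to 8.10 and 8.11 to 8.23 (2 of 7 rose and 1 fell). For fibroblast and endothelial markers it was 7.59 to 7.73 and 7.76 to 7.92 (1 of 7 rose, Dcn, by 0.52). For dividing-cell markers it was 6.24 to 6.53 and 6.16 to 6.43. Of these 5, Top2a rose by 0.29, while the other 4 did not pass and stood between -0.36 (Ccnb1) and -0.11 (Mki67). Of the neuron markers 0 rose and 1 fell. The part of these cells in the results was not tested. In such bulk RNA, fewer cells of a type and less RNA per cell cannot be told apart.

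Of the 44 genes, 2 fell and 5 rose in the Ncoa3 shRNA arrays. Eif4e, the cap-binding protein, and Eif2s2, the beta subunit of eIF2, fell. Eif4ebp2 and Eif4ebp3, which encode 4E-BPs, Eif4enif1, which encodes the eIF4E-binding protein 4E-T, Eif4e2, which encodes the cap-binding eIF4E homologue 4EHP, and the eIF3 subunit gene Eif3l rose. The 7 genes make up 15.9% of the factors, where 19.5% of all genes passed the same test (limma, adjusted p under 0.05). By direction 10.5% of all genes were higher and 9.04% lower. The share among the factors is thus no larger than among genes in general, but that reference is not matched for signal. In 20 bins of signal, 48.1% of the genes in the dimmest bin passed. In the bins brighter than the median gene, where 42 of the 44 factors lay, 8.59% to 13.3% passed. Against these brighter bins the 15.9% of the factors was not lower, but it counts Eif4ebp3, which was dimmer than the median gene. When the brighter genes alone were fitted, the factors passed about as often as those genes did (last section). Eif4e was among those that no longer passed there. The factors were not tested against genes of like signal. No other factor had an unadjusted p under 0.05, the next being Eif2b2 at 0.0518. The median change was 0.01 over the factors and 0.01 over all genes, and the median size of a change, regardless of sign, was 0.12 over the factors and 0.15 over all genes.

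**Figure D1:**
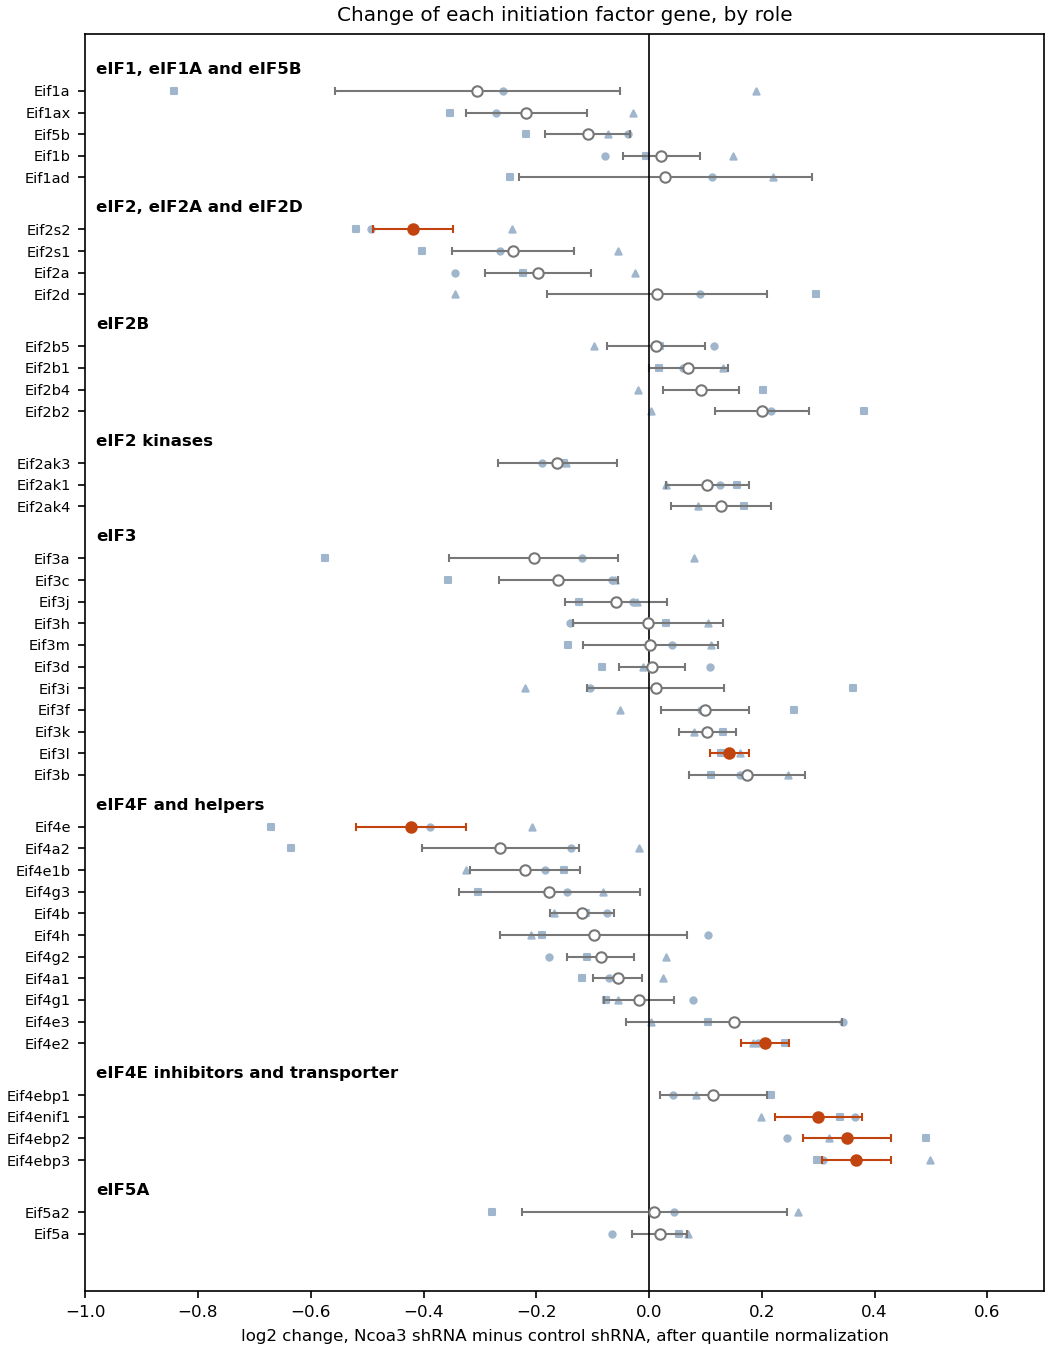
The log2 change of each of the 44 genes (Ncoa3 shRNA minus control shRNA, after quantile normalization) is plotted by role. Large circles with bars are the fitted change ± SE (n = 3 per group), filled where limma's adjusted p was under 0.05, and the small marks are the changes in experiment 1 (circle), 2 (square) and 3 (triangle); the filled circles on the right are Eif3l, Eif4e2, Eif4enif1, Eif4ebp2 and Eif4ebp3, and those on the left Eif2s2 and Eif4e.

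Eif4e (probe set 17743093) had deposited signals of 10.95, 11.16 and 10.74 with control shRNA in experiments 1, 2 and 3, and of 10.37, 10.27 and 10.32 with Ncoa3 shRNA. The 3 Ncoa3 shRNA values all lay below the control values, and they spread less (SD 0.0493 against 0.210). Quantile-normalized values put it 1.34-fold lower, at -0.42 ± 0.0974 on the log2 scale (SE; limma, adjusted p = 0.0310). By experiment the change was -0.39, -0.67 and -0.21. The fall was also past the test in the deposited values, at -0.63 (adjusted p = 0.0114). With the experiment as a replicate block it passed narrowly (limma, adjusted p = 0.0496). After centring the arrays on their medians instead it did not pass (limma, adjusted p = 0.262). The promoter of Eif4e is known for its pair of E-boxes, the CACGTG element that Myc binds, and is shown for that reason. Both copies were found in the 250 bases before the RefSeq start (GRCr8, plus strand, chr2:229740503-229740752), at 237 and 80 bases before it. They are in capitals:

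Eif4e: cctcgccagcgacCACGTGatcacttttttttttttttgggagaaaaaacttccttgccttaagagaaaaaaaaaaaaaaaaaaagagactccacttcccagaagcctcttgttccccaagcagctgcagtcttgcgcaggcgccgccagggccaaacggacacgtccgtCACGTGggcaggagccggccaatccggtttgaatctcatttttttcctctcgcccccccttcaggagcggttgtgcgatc

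The genes of 3 proteins that bind eIF4E, and of the homologue 4EHP, rose after normalization. Eif4ebp2 (probe set 17758549) encodes the 4E-BP that is most abundant in brain. Its deposited signal was 10.56 on all 3 control arrays and 10.60, 10.84 and 10.69 with Ncoa3 shRNA. All Ncoa3 shRNA values lay above the control value, and the gene rose by 0.35 ± 0.0778 after normalization (1.28-fold; limma's adjusted p = 0.0273), with 0.24, 0.49 and 0.32 in the 3 experiments.

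Eif4ebp3 (probe set 17722532) had the dimmest probe set of the 44, with deposited signals of 6.55, 6.54 and 6.54 under control and 6.56, 6.56 and 6.75 under Ncoa3 shRNA. The groups did not overlap, though the deposited difference was 0.01 and 0.02 in experiments 1 and 2 against 0.21 in experiment 3. The change after normalization was 0.37 ± 0.0617 (1.29-fold; limma's adjusted p = 0.0115). Eif4ebp1, the 4E-BP gene best known as a target of the growth kinase mTOR, had deposited signals of 10.51, 10.43 and 10.59 under control and 10.33, 10.41 and 10.47 under Ncoa3 shRNA, which overlapped. Its change of 0.11 ± 0.0954 did not pass (adjusted p = 0.462).

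Eif4enif1 (probe set 17690946), whose product carries eIF4E into the nucleus and into P-bodies, had deposited signals of 9.93, 10.00 and 9.81 under control and 10.06, 10.06 and 9.76 under Ncoa3 shRNA. These ranges overlapped, and experiment 3 went the other way from the first 2 experiments before normalization. After it the groups were apart and the change was 0.30 ± 0.0774 (1.23-fold; limma's adjusted p = 0.0434). Eif4e2 (probe set 17861144) had a deposited signal of 11.49 on all 3 control arrays and of 11.51, 11.56 and 11.51 with Ncoa3 shRNA. It rose by 0.21 ± 0.0426 (1.15-fold; limma's adjusted p = 0.0224). Thus 3 of the 4 genes of the inhibitor and transporter group rose, 0 fell and 1 did not pass, where 10.5% of all genes rose. The median change of the 4 was 0.33 against 0.01 over all genes. The groups by role were drawn up with earlier results of these data known, so this count is a description.

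None of the 5 rises passed in the deposited values, where the differences were 0.15 for Eif4ebp2, 0.08 for Eif4ebp3, 0.05 for Eif4enif1, 0.03 for Eif4e2 and 0.01 for Eif3l (adjusted p from 0.133 to 0.720). All of these were above 0 while 15780 of the 18166 genes stood below 0 there. These 5 were the only factors above 0, since the other 39 stood below it. The rise is therefore a rise relative to the typical gene.

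**Figure D2:**
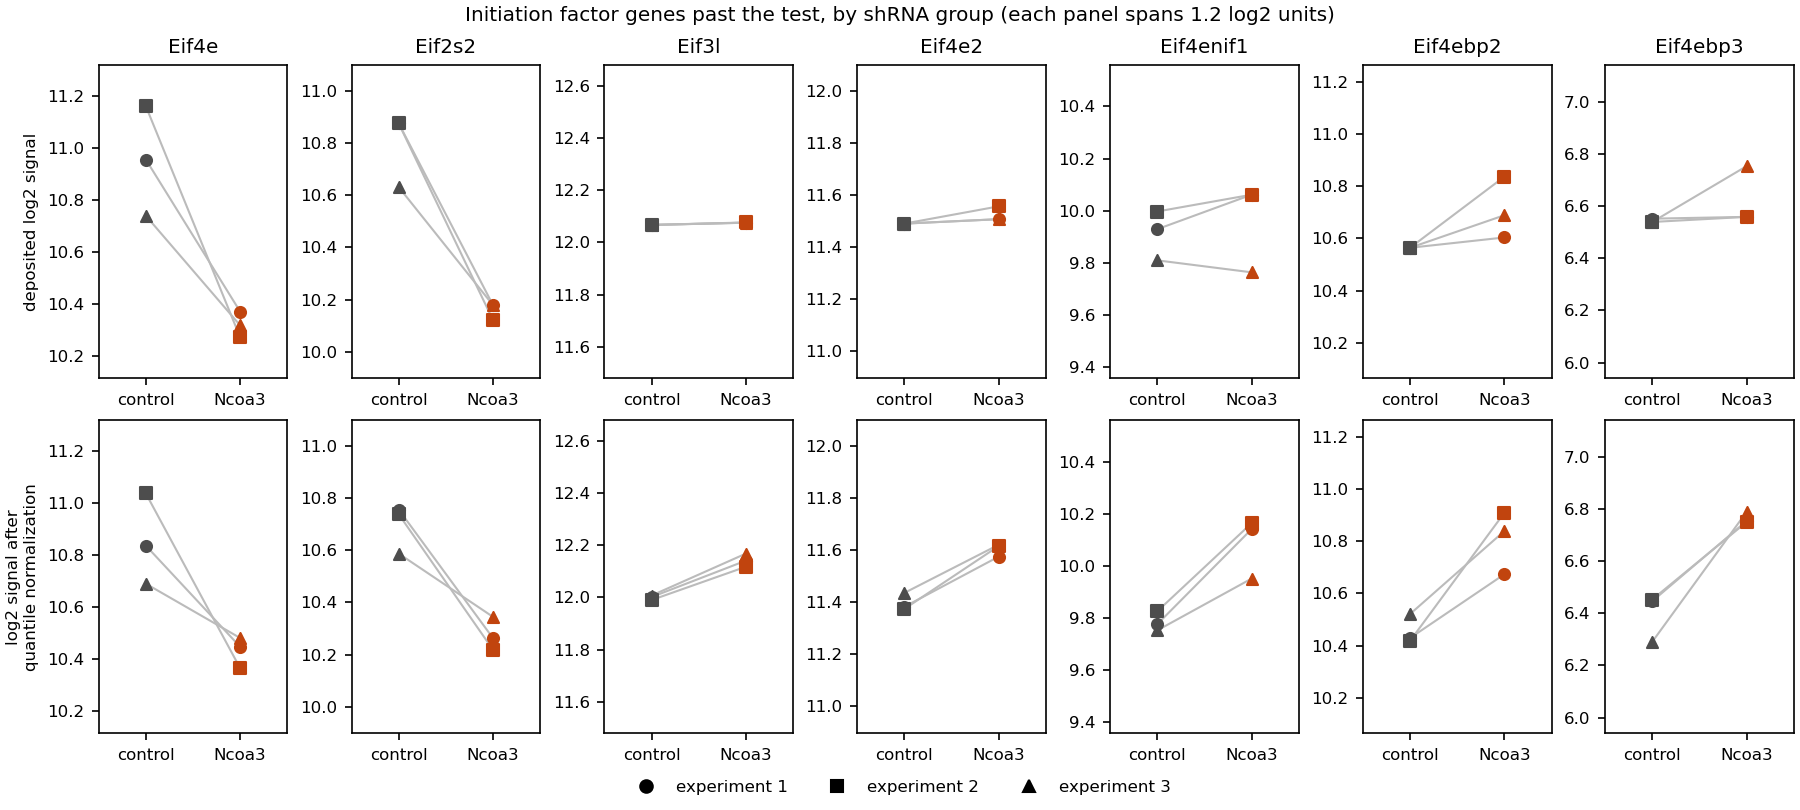
Log2 signal of the 7 genes past the test on each array, deposited (top row) and after quantile normalization (bottom row). Grey points are control shRNA and orange points Ncoa3 shRNA, marked by experiment and joined within an experiment; every panel spans 1.2 log2 units. Eif4e and Eif2s2 are lower in both rows, while the other 5 are past the test in the values of the bottom row only.

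Eif4e was also set against these genes within each array, where an offset common to both probe sets cancels. The offset between the groups differed with signal, so it need not cancel in full. The deposited signal of Eif4e minus that of Eif4ebp2 was 0.39, 0.60 and 0.18 on the control arrays and -0.23, -0.56 and -0.37 on the Ncoa3 shRNA arrays, a shift of -0.78. The groups did not overlap. The same shift was -0.71 against Eif4ebp3, -0.68 against Eif4enif1 and -0.66 against Eif4e2, with no overlap between the groups in any of them. A probe set's level says nothing of amount against another probe set, so only the shift between groups can be read. The pairs were picked with their values in view and carry no test. Each sets a gene called lower against a gene called higher, so the lack of overlap follows largely from that choice. How many other pairs of genes do not overlap was not counted.

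The promoters of both risen 4E-BP genes are shown as the counterpart of that of Eif4e. Neither window held an E-box. Eif4ebp2 (GRCr8, minus strand, chr20:29942923-29943172) held 2 copies of CCGGAA, the core that ETS factors bind, at 159 and 13 bases before the start, and Eif4ebp3 (plus strand, chr18:28540074-28540323) held 1 copy of AGGTCA, the half-site of many nuclear receptors, 161 bases before it. CCGGAA was in 55.0% of the factors' windows and 17.6% of all windows, and AGGTCA in 10.0% and 11.8%. The windows also held 4 (Eif4ebp2) and 2 (Eif4ebp3) copies of the GC box GGGCGG, which are not marked. Any part of these motifs in the changes was not tested. The copies of CCGGAA and AGGTCA, on either strand, are in capitals:

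Eif4ebp2: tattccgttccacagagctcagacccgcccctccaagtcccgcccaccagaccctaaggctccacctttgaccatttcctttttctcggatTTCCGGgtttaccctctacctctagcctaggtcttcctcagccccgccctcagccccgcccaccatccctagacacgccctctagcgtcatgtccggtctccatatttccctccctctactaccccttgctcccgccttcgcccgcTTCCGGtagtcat

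Eif4ebp3: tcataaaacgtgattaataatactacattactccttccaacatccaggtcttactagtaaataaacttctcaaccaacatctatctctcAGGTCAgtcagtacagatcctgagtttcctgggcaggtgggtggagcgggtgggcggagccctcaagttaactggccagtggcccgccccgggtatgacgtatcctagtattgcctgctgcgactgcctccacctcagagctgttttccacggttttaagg

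Eif2s2 (probe set 17778505) had deposited signals of 10.88, 10.88 and 10.63 under control and of 10.18, 10.12 and 10.18 under Ncoa3 shRNA. The Ncoa3 shRNA values all lay below the control values. Normalized, it stood 1.34-fold lower at -0.42 ± 0.0711 (SE; limma, adjusted p = 0.0120), with -0.49, -0.52 and -0.24 by experiment. It also passed in the deposited values, at -0.63 (adjusted p = 0.00281), and with the replicate block (limma, adjusted p = 0.0239). It did not pass after median centring (limma, adjusted p = 0.207). Its promoter window (GRCr8, minus strand, chr3:163855571-163855820) held TGATGNAA, the form of the C/EBP-ATF element through which ATF4 acts in the stress response to eIF2 phosphorylation. It was the only one of the 40 windows at hand for the factors to do so (2.5%), about the share of all windows (2.6%). Any part of the element in the fall was not tested. The copy lies 36 bases before the start and is in capitals:

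Eif2s2: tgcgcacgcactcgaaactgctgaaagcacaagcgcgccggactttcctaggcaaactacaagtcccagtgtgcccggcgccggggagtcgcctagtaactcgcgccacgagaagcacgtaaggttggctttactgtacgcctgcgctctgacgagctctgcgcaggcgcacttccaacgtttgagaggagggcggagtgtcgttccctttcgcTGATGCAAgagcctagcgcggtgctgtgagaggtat

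The other 3 genes of tRNA delivery did not pass after normalization, and the gene of the gamma subunit of eIF2 was not analysed here. Eif2s1, the alpha subunit that the eIF2 kinases phosphorylate, had deposited signals of 11.51, 11.48 and 11.50 under control and 11.06, 10.90 and 11.26 under Ncoa3 shRNA. Those values did not overlap and were past the test as deposited (-0.42, adjusted p = 0.0237), but the change after normalization was -0.24 ± 0.108 (adjusted p = 0.179). Eif2a, a tRNA carrier distinct from eIF2, stood at -0.20 ± 0.0941 (adjusted p = 0.201, and 0.0299 as deposited, at -0.47), and Eif2d, which delivers tRNA without GTP, at 0.01 ± 0.195 (adjusted p = 0.972). Eif2d was the most uneven of the group, with 0.09, 0.30 and -0.34 in the 3 experiments. The shift of Eif2s2 against Eif2s1 within arrays was -0.21, and there the groups overlapped.

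None of the 4 measured genes of eIF2B, the factor that reloads eIF2 with GTP, passed limma's test, where the 4 changes were all above 0. Eif2b2 stood at 0.20 ± 0.0835 (adjusted p = 0.152). Its deposited signal was 10.27 on all 3 control arrays and 10.27, 10.40 and 10.05 under Ncoa3 shRNA. Eif2b4 stood at 0.09 ± 0.0676, Eif2b1 at 0.07 ± 0.0701 and Eif2b5, the catalytic subunit, at 0.01 ± 0.0866. In the deposited values these 4 genes stood at -0.03, -0.16, -0.14 and -0.26, all below 0, so their sign depends on the normalization.

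The 3 measured eIF2 kinase genes did not pass after normalization. Eif2ak3 encodes PERK, the kinase that answers unfolded protein in the endoplasmic reticulum. Its deposited signals were 9.31, 9.31 and 9.42 under control and 8.84, 8.84 and 9.03 under Ncoa3 shRNA, with no overlap. The change after normalization was -0.16 ± 0.105 (adjusted p = 0.339), with -0.19, -0.15 and -0.15 in the 3 experiments. In the deposited values it passed, at -0.44 (limma, adjusted p = 0.00605). With the experiment as a replicate block it passed (limma, adjusted p = 0.0333). Eif2ak1, the haem-regulated kinase, stood at 0.10 ± 0.0729 and Eif2ak4, which encodes the amino acid sensor GCN2, at 0.13 ± 0.0888.

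Of the 11 measured eIF3 genes 1 rose, 0 fell and 10 did not pass after normalization. Eif3l (probe set 17830544) rose by 0.14 ± 0.0345 (1.10-fold; limma's adjusted p = 0.0359). Its deposited signal was 12.07 on every control array and 12.08 on every Ncoa3 shRNA array, with SDs of 0 and 0.00052, against 0.00876 and 0.0252 after normalization. The scaffold gene Eif3b, on which the complex assembles, stood at 0.17 ± 0.103 (adjusted p = 0.299, and 0.0458 with the replicate block). The other subunits ran from -0.20 ± 0.150 for Eif3a, the largest subunit, through -0.16 ± 0.105 for Eif3c and values within 0.06 of 0 for Eif3d, Eif3h, Eif3i, Eif3j and Eif3m, to 0.10 for Eif3f and 0.10 for Eif3k. Eif3a had deposited signals of 10.17, 10.45 and 9.77 under control and 9.81, 9.61 and 9.61 under Ncoa3 shRNA, which overlapped. The 11 genes of this complex had a median change of 0.00.

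Among the 11 genes of eIF4F and its helpers 1 rose (Eif4e2) and 1 fell (Eif4e). Neither of the helicase genes passed after normalization. Eif4a1, whose probe set was the brightest of the 44, had deposited signals of 13.01, 12.98 and 12.95 under control and 12.90, 12.86 and 12.86 under Ncoa3 shRNA. Eif4a2, the form enriched in neurons, had 11.05, 11.47 and 11.15 against 10.72, 10.64 and 10.94. After normalization Eif4a1 stood at -0.06 ± 0.0437 and Eif4a2 at -0.26 ± 0.140 (adjusted p = 0.433 and 0.246, and 0.0127 and 0.0608 as deposited). Eif4a2 moved most in experiment 2, by -0.64, against -0.14 and -0.02 in the others. The shift of Eif4a2 against Eif4a1 within arrays was -0.35, and there the groups overlapped. The genes are close copies, and how far their probe sets share signal was not tested.

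The scaffold genes Eif4g1, Eif4g2 and Eif4g3 stood at -0.02 ± 0.0616, -0.09 ± 0.0601 and -0.18 ± 0.161, and none passed after normalization. Eif4g1 is the only one of the 44 genes with several probe sets. Its 3 probe sets gave -0.02, -0.02 and -0.12, with standard errors of 0.0622, 0.125 and 0.0977. Eif4b and Eif4h, which stimulate the helicase, stood at -0.12 ± 0.0567 and -0.10 ± 0.167. Eif4e3, a cap-binding relative of eIF4E, stood at 0.15 ± 0.192, and Eif4e1b, the oocyte form of eIF4E, at -0.22 ± 0.0970 (adjusted p = 0.172, and 0.0320 with the replicate block). Eif4e1b was dimmer than the median gene (7.15 under control and 6.64 under Ncoa3 shRNA, against 7.89).

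None of the 5 genes of eIF1, eIF1A, their relatives and eIF5B, which bear on start codon choice and subunit joining, nor of the 2 eIF5A genes, passed after normalization. Eif1ax and Eif5b passed in the deposited values (adjusted p = 0.0166 and 0.0107). Eif1a had the widest spread under Ncoa3 shRNA of the 44 genes (SD 0.495), at 10.61, 10.83 and 10.74 under control and 10.14, 9.75 and 10.73 under Ncoa3 shRNA. Its change was -0.30 ± 0.252 and -0.26, -0.84 and 0.19 by experiment. Its close copy Eif1ax, an X-linked gene, stood at -0.22 ± 0.107, Eif5b, the GTPase that joins the subunits, at -0.11 ± 0.0750, Eif1b at 0.02 ± 0.0688 and Eif1ad, which shares a domain with eIF1A, at 0.03 ± 0.259. Eif5a, whose protein carries the modified amino acid hypusine and helps elongation, was nearly level at 0.02 ± 0.0490, and its copy Eif5a2 stood at 0.01 ± 0.235 with experiments at 0.04, -0.28 and 0.26.

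**Figure D3:**
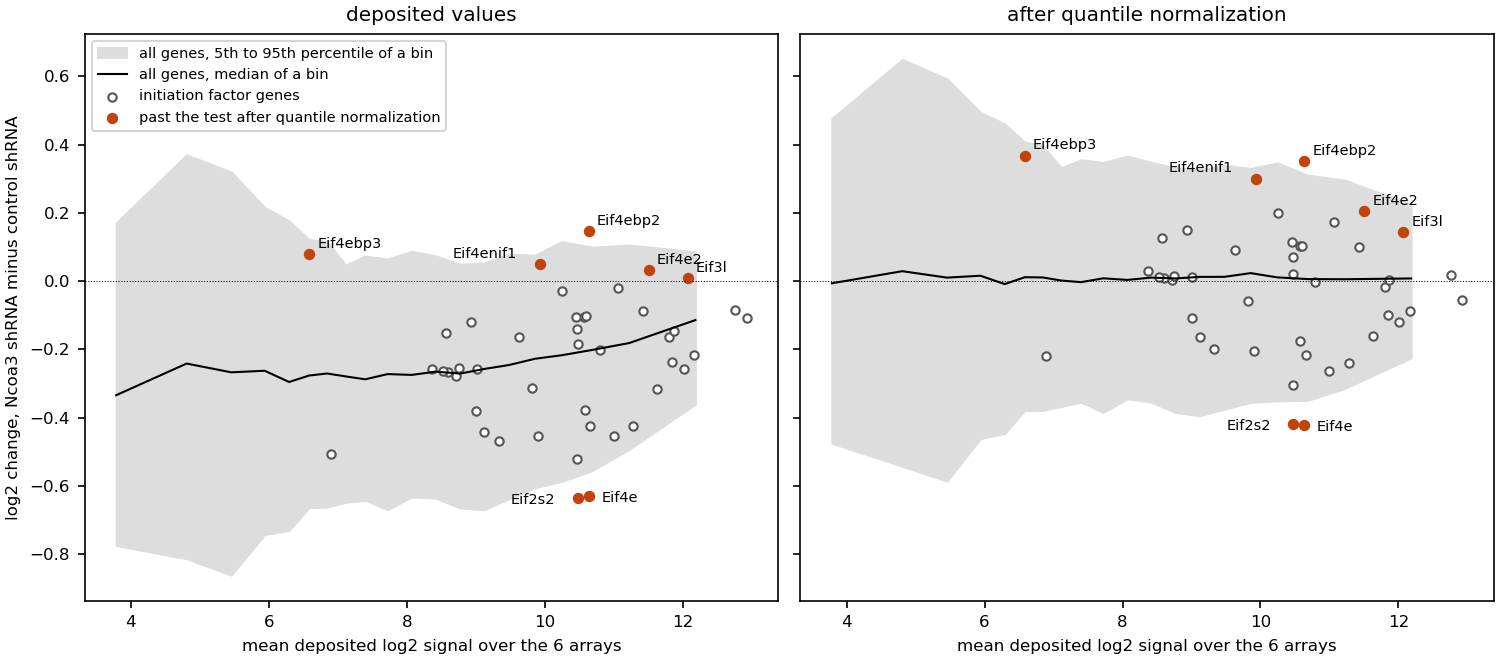
Log2 change (Ncoa3 shRNA minus control shRNA) against mean deposited log2 signal, in the deposited values (left) and after quantile normalization (right). Circles are the 44 genes, filled where past the test after normalization, and the line and band are the median and the 5th to 95th percentile of all genes in 20 bins of signal. Of the 44 genes, 42 were brighter than the median gene.

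The offset between the groups bears on these counts. In the deposited values 13 factors passed limma's test (29.5%, against 47.2% of all genes), 13 of them lower and 0 higher, where 43.3% of all genes were lower and 3.97% higher. At an unadjusted p under 0.05 there were 16 lower and 0 higher. Centring the arrays on their medians instead gave 1 factor, Eif4ebp3, where 10.3% of all genes passed. The changes there were -0.35 for Eif4e and Eif2s2, 0.43 for Eif4ebp2, 0.36 for Eif4ebp3, 0.33 for Eif4enif1, 0.32 for Eif4e2 and 0.29 for Eif3l. The 13 factors past the test in the deposited values included Eif4e, Eif2s2, Eif2s1, Eif2a and Eif2ak3. The others of the 13, with their deposited changes, were Eif4e1b (-0.51), Eif1ax (-0.43), Eif5b (-0.38), Eif3j (-0.31), Eif4b (-0.26), Eif4g2 (-0.22), Eif4a1 (-0.11) and Eif3k (-0.10). Limma's adjusted p in the deposited values ran from 0.000726 to 0.0318. Counted without a test, the groups did not overlap after normalization for 3 factors that were lower and 7 that were higher, against 19.0% and 21.5% of all genes. In the deposited values that held for 17 lower and 4 higher factors, against 55.6% and 5.36% of all genes. With the experiment as a replicate block 10 factors passed, where 39.3% of all genes did. Of them 4 were lower and 6 higher, where 18.6% and 20.8% of all genes were, the additions being Eif2ak3, Eif4e1b and Eif3b. The block on the deposited values gave 15 (60.2% of all genes), 15 lower and 0 higher, against 55.9% and 4.33%.

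The calls rest on few arrays. Without experiment 1 or without experiment 2 (both arrays), limma called 0 of the 44 genes, where 1.23% and 0.00% of all genes passed, and at an unadjusted p under 0.05 there were 5 and 6. Without experiment 3, 14 were called, among 46.0% of all genes. Leaving out 1 array of experiment 1 or 2 gave 0 or 1, where 7.85% to 8.86% of all genes passed. Leaving out 1 of experiment 3 gave 6 without the control array and 7 without the Ncoa3 shRNA array, among 20.3% and 21.3% of all genes. Over these 9 fits the largest adjusted p was 0.257 for Eif4e, 0.218 for Eif2s2, 0.277 for Eif4ebp2, 0.202 for Eif4ebp3, 0.394 for Eif4enif1, 0.287 for Eif4e2 and 0.383 for Eif3l, while each kept its sign. The changes themselves ran from -0.52 to -0.30 for Eif4e, -0.50 to -0.37 for Eif2s2, 0.28 to 0.42 for Eif4ebp2, 0.30 to 0.40 for Eif4ebp3, 0.26 to 0.37 for Eif4enif1, 0.19 to 0.23 for Eif4e2 and 0.13 to 0.15 for Eif3l. Many deposited values were equal within a group, and their part in the spread was not tested. All 3 control values were equal for Eif3l, Eif4e2, Eif4ebp2 and Eif2b2, all 3 Ncoa3 shRNA values for Eif5b, and 21 of the 44 genes had at least 1 pair of equal values within a group.

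The experiments were compared in the same arrays, since each held 1 array of either group. No factor differed between experiments by limma's F test (0 of 44 at an adjusted p under 0.05, where 18.8% of all genes passed). At an unadjusted p under 0.05 there were 11 of 44, against 41.7% of all genes. In the deposited values 0 passed, where 1.91% of all genes did, and after median centring 22, where 55.5% did. The lowest adjusted p were 0.0505 for Eif2ak3 and 0.0529 for Eif4g3. Experiment 3 stood below the mean of the first 2 experiments in both shRNA groups for 21 factors (47.7%, against 56.6% of all genes) and above it in both for 12 (22.6% of all genes). The widest difference under control shRNA was that of Eif1ad, at -0.77, with -0.48 under Ncoa3 shRNA. Eif1a differed by 0.84 under Ncoa3 shRNA and 0.10 under control. Whether the effect of the shRNA differed between experiments could not be tested with 1 array of each.

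**Figure D4:**
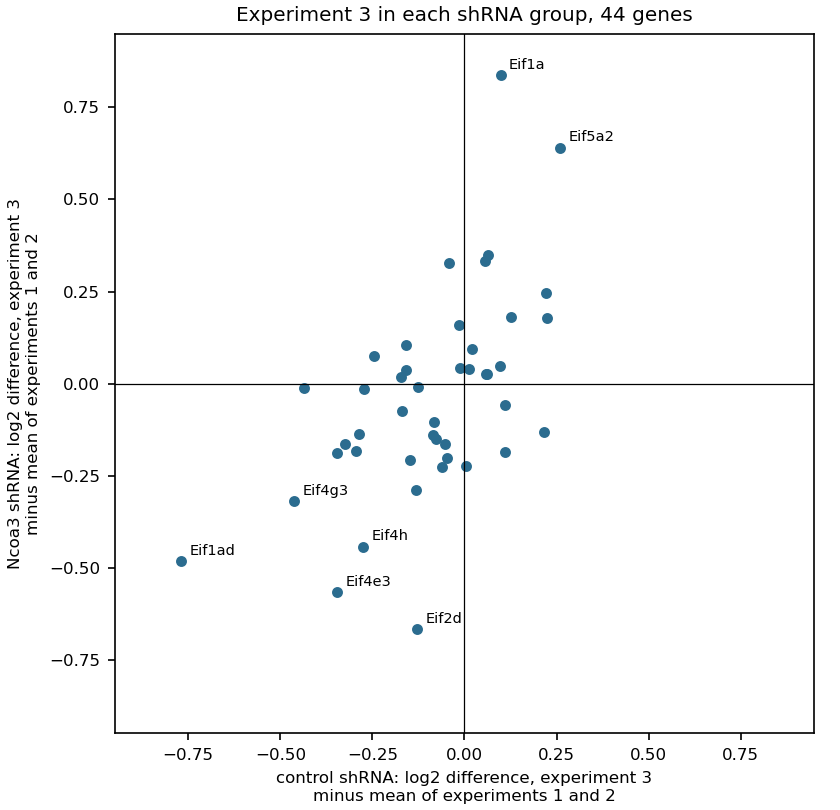
Log2 signal in experiment 3 minus the mean of experiments 1 and 2, after quantile normalization, under control shRNA (horizontal axis) and under Ncoa3 shRNA (vertical axis), 1 point for each of the 44 genes. Eif1ad and Eif4g3 lie low on both axes and Eif5a2 high on both, while Eif1a is high under Ncoa3 shRNA alone.

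Other genes of translation were followed in 6 lists. Of 91 listed symbols 76 were measured, and of these 3 rose, 7 fell and 66 did not pass, with a median change of -0.06. Of all genes 19.5% passed, 10.5% higher and 9.04% lower. Of 18 genes of cap and poly(A) partners 4 fell and 0 rose. They were the helicase gene Ddx3x at -0.53, Fmr1, whose protein FMRP represses translation at synapses, at -0.51, the nuclear cap-binding gene Ncbp2 at -0.49 and Paip2, an inhibitor of the poly(A)-binding protein, at -0.37 (limma's adjusted p from 0.00406 to 0.0383). Of 15 genes of mTOR complex 1 and MNK signalling, Tsc2, a brake on mTOR, rose by 0.28 (adjusted p = 0.0114). Of 14 genes around eIF2 phosphorylation and the stress response, Nck1, an adaptor linked to an eIF2 phosphatase, fell by 0.33 (0.0207) and Chac1, a target of ATF4, rose by 0.41 (0.00934). Atf4, the transcription factor at the centre of that response, stood at -0.14 (adjusted p = 0.211, and 0.0430 with the replicate block), and its target Ddit3 at -0.27 (0.369). Of 13 elongation genes Eef1b2, an exchange factor of eEF1A, rose by 0.66 (0.0191). The probe set of Eef1b2 was dimmer than the median gene (6.13 under control and 6.50 under Ncoa3 shRNA, against 7.89). Of 8 genes of termination and rescue, the release factor gene Gspt1 fell by 0.39 (0.00420) and the ligase gene Ltn1 by 0.33 (0.0146), and of 8 mitochondrial factors 0 passed limma's test (1 at an unadjusted p under 0.05, and 8 were below 0). With the replicate block 5 of the 76 rose and 15 fell, where 39.3% of all genes passed.

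The promoters of the factors were compared in RefSeq's sequences (GRCr8). A window of 250 bases before the start was at hand for 40 of the 44 genes and for 14505 genes of the array, and motifs were searched on both strands. CACGTG was found in 8 of the 40 (6.9% of all windows), which were those of Eif4e, Eif5a2, Eif5a, Eif4h, Eif4g1, Eif1b, Eif3f and Eif3b. Eif4e was the only one of these 8 past the test, and the others stood between -0.10 and 0.17. CCGGAA was found in 55.0% (17.6% of all windows), the GC box GGGCGG in 67.5% (45.4%), CCAAT in 30.0% (35.2%), AGGTCA in 10.0% (11.8%), TATAAA in 5.0% (11.3%), TGATGNAA in 2.5% (2.6%) and the cAMP element TGACGTCA in 0 of 40 (2.2%). None of the copies in capitals above overlapped a copy of another of these motifs. A match describes the letters and not a bound site.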

How the data were processed

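Per the submitters' processing notes the authors ran Affymetrix Expression Console, and the table they deposited gives a log2 signal for each probe set on each array. Its version, summarisation, normalization and build were not given in the sources used here. Symbols came from the platform's annotation, which can be old. Of 36685 probe sets, 18511 had 1 symbol, 575 had several (3 of these with an initiation factor symbol, not analysed here) and the rest none. All 44 Entrez numbers were found in RefSeq and 0 symbols changed. All probe sets were quantile-normalized together. The test was limma 3.58.1 (R 4.3.3; lmFit, eBayes with a trend, two-sided) on the brightest probe set of 18166 genes, Benjamini-Hochberg adjusted over all of them, and passed at an adjusted p under 0.05. Experiments were compared by limma's F test in a fit with group and experiment. The fits were tested on simulated data with independent noise on each array and larger changes than those of the factors. That simulation held no pairing, no offset between the groups and no equal values. It therefore cannot show how the calls made here fare under these. Arrays of 1 experiment are paired per the labels, and their deviations from the group means correlated at r = 0.72, 0.55 and 0.78 over genes. Between experiments r was -0.73 to 0.50. The 3 deviations of a gene in a group sum to 0, so positive values within experiments push those between them down. The main fit has no term for the experiment, and the fit with the replicate block is given beside it. The number of arrays limits the precision, and p-values measure the spread between these arrays.

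Members, role groups, lists and the rule for named genes were chosen with earlier results of these data known. Named were the genes past either test, those whose call the block altered, the extremes of each role group, all genes of groups of 6 or fewer and, in other lists, up to 4 genes past the test; Eif4a1, Eif4g1, Eif4g2, Eif4b, Eif4h, Eif4g3, Eif4a2, Eif4e3 and the middle eIF3 genes, Atf4 and Ddit3 were added for their roles. Alternatives were the deposited values, median centring, cyclic loess, the block, eBayes without trend, bright genes only, the mean of probe sets, and each array or experiment left out.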

Additional observations from a re-analysis of the deposited data

How the results depend on the processing

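Counts of the 44 genes past limma's test moved with the scaling. In place of 7 (5 higher, 2 lower), 13 passed in the deposited values (0 higher, 13 lower), 15 there with the replicate block (0 higher, 15 lower), 1 after median centring (1 higher, Eif4ebp3, and 0 lower), where 10.3% of all genes passed, and 2 of 42 among genes brighter than the median (1 higher, Eif4e2, and 1 lower, Eif2s2), where 4.77% of 9083 genes passed. Cyclic loess gave 7 (25.4% of all genes), the mean of probe sets 7 (19.5%) and eBayes without trend 6 (19.1%). The paired fit gave 10 in all, 6 higher and 4 lower. Leaving out 1 array or experiment gave 0 to 14 (higher 0 to 6, lower 0 to 8). Of the other translation genes 10 passed, against 25 in the deposited values, 45 there with the replicate block, 20 with the block, 2 after median centring and 0 to 22 with an array or experiment left out. The change of Ncoa3 ran from -1.15 to -0.86 over the latter fits. Between experiments 0 factors passed, but 22 did after median centring, where 55.5% of all genes did, and 3 among the brighter genes (22.8%). A call was gained with the opposite sign for Eif3k in the deposited values (-0.10, also with the block) and, with the block there, for Eif2ak4 (-0.15) and Eif2b5 (-0.26). Of 746 values of single factors under the alternatives, 66 lost a call, 35 gained one with the same sign, 4 with the opposite sign (above), and 86 changed sign with no call in either fit. The causes were not tested.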
